A study of Homo sapiens with 39 samples.

Results

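The comparison described here set A375 clone 4.1, in which the region called R4 near SOX10 had been deleted, against wild-type A375 cells (WT), with libraries paired by replicate number. It took in 8 of the 39 libraries of the series, 4 of the clone and 4 of WT, chosen by their titles. A375 is an established human melanoma cell line; the labels give the genotypes as WT and R4_del and name no treatment for any of these groups. The other A375 groups, used only to place clone 4.1, were R4 clone 4.2 (3 libraries) and R1 clones 1.1 (3 libraries) and 1.2 (4 libraries), R1 being another region near SOX10. All libraries of clone 4.1 are of 1 clone, so the tests compare this clone with WT and not the deletion with its absence. The labels do not say whether replicates came from separate cultures, so the p-values measure the spread between these libraries, which may be technical.

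SOX10 is a transcription factor of the neural crest that specifies melanocytes and glia, and most melanomas keep it on. In melanocytes it acts with PAX3 to drive MITF, which in turn drives the pigment genes. Melanomas that lose SOX10 are known to move toward an undifferentiated state with high levels of receptors such as EGFR and of matrix genes. Enhancers are stretches of DNA that raise transcription of a gene on the same chromosome, often from a distance.

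Values are TPM, a share of each library corrected for transcript length. The deposited values hold no read counts, so depth is unknown and no counting error could be given. Between 14443 and 15158 genes reached 1 TPM in the 8 libraries, and the 10 most abundant genes took 5.88% to 9.45% of the TPM. Replicate 3 had the highest share of mitochondrially encoded genes in both groups, 4.92% in WT and 4.42% in clone 4.1, against 0.968% to 1.66% in the other 6 libraries. Replicate 2 had the highest share of ribosomal protein genes in both groups, 25.5% and 26%, against 17.4% to 23.1% elsewhere.

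Markers of melanoma cells were read first as a check of the label. SOX10, MIA, S100A1, PRAME, CSPG4, MCAM and S100B were all well above 1 TPM in every library, whereas the pigment cell genes TYR, DCT and MLANA stayed below 1 TPM in all 8. PMEL and MITF, also among the 12 markers, each reached 1 TPM in at least 1 library. In bulk RNA, fewer cells of a type and less RNA per cell cannot be told apart. Markers of other cell types were mostly low, with KRT10, CD68 and LYZ among the exceptions. Endothelial markers summed to 2.25 to 3.04 TPM in WT and 3.01 to 3.47 in clone 4.1, and fibroblast markers to 7.32 to 15.9 and 7.53 to 17.8. Leukocyte markers summed to 27.1 to 122 TPM in WT and 26.7 to 116 in clone 4.1, nearly all from CD68 and LYZ, with MS4A1 listed at 0 throughout. Keratinocyte markers summed to 66.2 to 117 TPM in WT and 62.8 to 85.3 in clone 4.1. Of these 11 markers, 7 were below 1 TPM in all 8 libraries and IVL was listed at 0. KRT14, a basal keratin, fell by 1.5 on the log2(TPM + 1) scale (adjusted p = 0.00507, limma). It missed the threshold without replicate 1 and without the pairing (limma's adjusted p up to 0.667 over all alternatives).

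SOX10 itself was not lower in clone 4.1. Its level was 702, 706, 691 and 630 TPM in WT replicates 1 to 4 and 876, 774, 711 and 746 TPM in clone 4.1. All 4 clone libraries lay above all 4 WT libraries, by a narrow margin between WT replicate 2 and clone replicate 3. The mean difference was 0.18 ± 0.0694 (SE) on the log2(TPM + 1) scale, with an adjusted p of 0.135 in limma's paired fit. An exact two-sided sign-flip permutation test over the 4 pairs gave p = 0.125, the smallest value that 4 pairs allow. SOX10 (chromosome 22, 37970686 to 37987422, minus strand, GRCh38) averaged 682 ± 35.6 TPM (SD, n = 4) in WT and 777 ± 71.1 (n = 4) in clone 4.1. The other clones had lower means: 559 ± 80.9 TPM (n = 3) in clone 4.2, 513 ± 144 (n = 3) in clone 1.1 and 443 ± 27.8 (n = 4) in clone 1.2. The highest library of clone 4.2 (647 TPM) and of clone 1.1 (667 TPM) lay within the WT range. That of clone 1.2 (473 TPM) lay below it. These clones were not tested against WT.

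Most of the SOX10 signal came from transcript SOX10-202, which carried 69.1% of the gene's TPM in WT and 74.1% in clone 4.1. It stood at 485, 523, 466 and 412 TPM in WT and at 637, 603, 515 and 549 TPM in clone 4.1, higher in 4 of 4 pairs. Transcript SOX10-204 averaged 133 ± 17.7 TPM (SD, n = 4) and 130 ± 19.9 (n = 4) and was lower in 3 of 4 pairs. Transcripts were not tested.

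Around SOX10, 24 genes were tested, and 1 rose and 2 fell. Here and below a gene is said to have risen or fallen when its adjusted p was under 0.05 (limma's paired fit, Benjamini-Hochberg over 16692 genes), which 6.55% of all genes did upward and 5.14% downward. TRIOBP, a regulator of the actin cytoskeleton, rose from 79.4 ± 8.32 to 113 ± 13.7 TPM (SD, n = 4 each; adjusted p = 0.0128). BAIAP2L2, a membrane-bending protein, fell from 32.8 ± 12.7 to 18.1 ± 5.40 TPM, and MICALL1, an endosome protein, from 70.3 ± 17.4 to 54.4 ± 11.2 TPM. The median of the 24 was 0.03, beside -0.02 over all genes. None of the 3 passed in a fit without the pairing, and 1 fell and none rose without replicate 1 or without replicate 4.

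**Figure D1:**
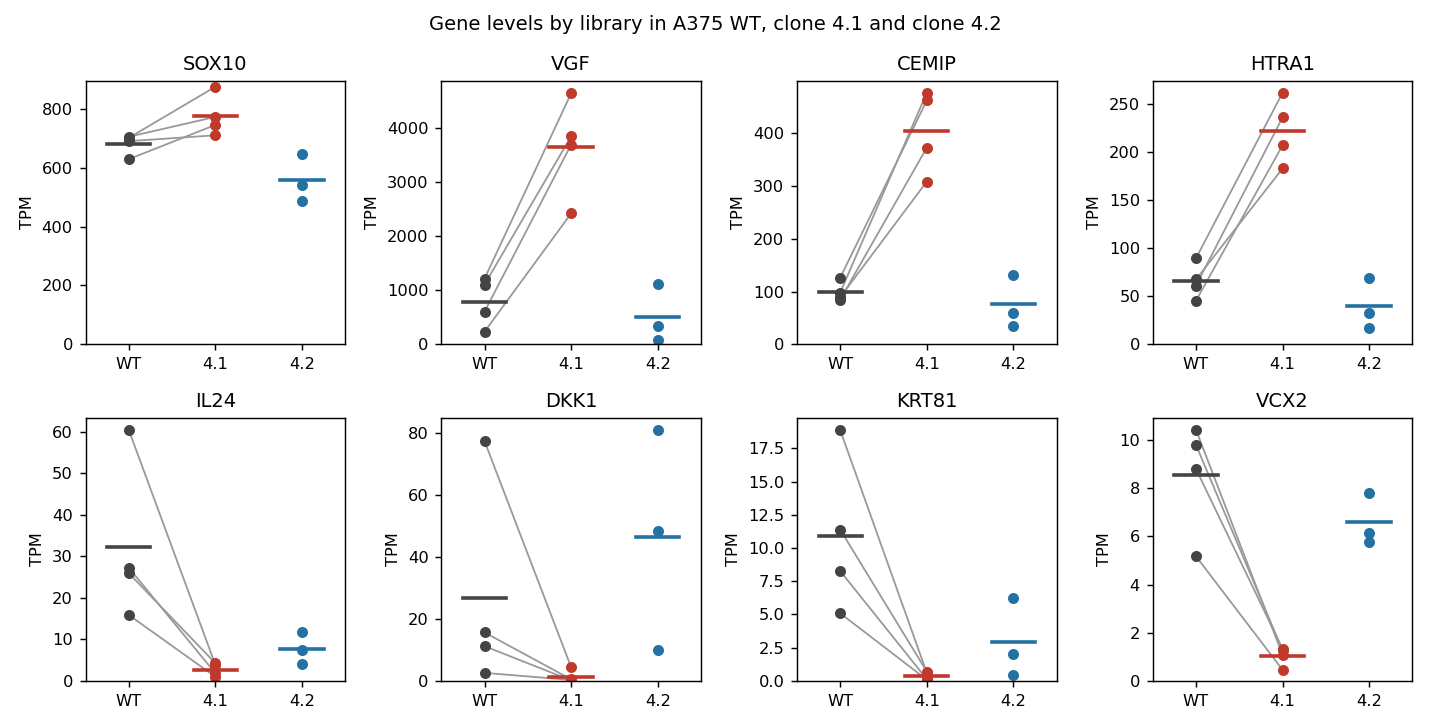
Level in TPM (vertical axes, linear from 0) of 8 genes by library in A375 WT, clone 4.1 and clone 4.2; points are libraries, horizontal bars are group means, and grey lines join WT and clone 4.1 libraries of the same number. SOX10 differs little between WT and clone 4.1, whereas VGF is at 2416 TPM or more in each clone 4.1 library and at 1211 or less in each WT library.

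Across the genome, 242 of 16692 genes (1.45%) were called, meaning an adjusted p under 0.05 and a log2 difference of at least 1 in size. Of these 121 were higher in clone 4.1 (0.725%) and 121 lower (0.725%). The direction was the same in all 4 pairs for 239 of the 242. Protein-coding genes made up 90 of the higher and 101 of the lower calls, and long noncoding RNAs 21 and 9. Without regard to a test, 1189 genes (7.12%) had all 4 clone libraries on 1 side of all 4 WT libraries. Without the pairing, 75 genes were called, 29 higher and 46 lower, all of them among the 242.

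VGF, a neuropeptide precursor of secretory granules that nerve growth factor induces in neurons, was the most abundant of the 15 genes with the largest rises. It measured 601, 1102, 1211 and 231 TPM in WT and 3687, 3841, 4633 and 2416 TPM in clone 4.1, so the groups did not overlap and WT replicate 4 was the lowest. The difference was 2.43 ± 0.246 (SE; adjusted p = 0.00313), and without the pairing VGF no longer passed (adjusted p = 0.0766 with 2 groups and 0.236 with 5 groups in the fit; 0.000548 to 0.236 over all alternatives). The gain lay in the main transcripts alike: VGF-201 held 84.6% of the gene's TPM in WT and 82.0% in clone 4.1.

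VGF lies on chromosome 7 (101162509 to 101165593, minus strand, GRCh38). Its promoter, chr7:101165520-101165819 on the minus strand (RefSeq, GRCh38.p14), is shown because VGF led the rises in abundance and its cAMP response element is a textbook site; the capitals mark that motif, TGACGTCA, which starts 79 bases before the transcription start.
VGF: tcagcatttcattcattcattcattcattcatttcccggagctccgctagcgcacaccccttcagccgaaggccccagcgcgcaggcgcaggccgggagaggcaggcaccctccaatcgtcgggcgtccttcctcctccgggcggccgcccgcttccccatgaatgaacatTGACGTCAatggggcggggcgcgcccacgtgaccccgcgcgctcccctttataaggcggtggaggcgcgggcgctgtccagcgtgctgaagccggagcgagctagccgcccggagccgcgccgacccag

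CEMIP, a protein that binds hyaluronan and promotes its breakdown, measured 98.1, 89.2, 126 and 84.8 TPM in WT and 477, 309, 463 and 373 in clone 4.1. HTRA1, a secreted serine protease, measured 61.1, 67.5, 89.4 and 45.3 TPM in WT and 236, 183, 262 and 207 in clone 4.1. In both genes the groups lay far apart; the log2 differences were 2.01 ± 0.0929 (adjusted p = 0.000456) and 1.77 ± 0.127 (adjusted p = 0.00108). THSD4, a microfibril-associated matrix protein, rose from 5.90 ± 1.36 to 25.1 ± 5.76 TPM. SEMA3G, a secreted semaphorin, measured 3.19, 3.998, 1.90 and 3.23 TPM in WT and 18.8, 19.97, 13.7 and 15.5 in clone 4.1, a difference of 2.15 ± 0.107 (adjusted p = 0.000569).

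IL1A, an inflammatory cytokine, had low levels that rose in each pair, from 1.06, 3.40, 2.85 and 1.21 TPM to 11.1, 26.2, 19.6 and 5.43. The libraries that were high in WT (replicates 2 and 3) were also high in clone 4.1. Its difference of 2.28 ± 0.192 had an adjusted p of 0.0018 in limma's paired fit, and 0.0722 in a fit of the 2 groups without the pairing, the highest over all alternatives (lowest 0.000327). TAFA2, a secreted chemokine-like protein, rose from 2.79 ± 2.08 to 14.5 ± 4.25 TPM. SIRPB1, a signal-regulatory receptor of the immunoglobulin family, rose from 16.6 ± 3.44 to 54.7 ± 14.6 TPM, and ABCA8, a lipid transporter, from 2.82 ± 1.92 to 11.9 ± 6.44 TPM.

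The IL1A promoter (chr2:112784444-112784743, minus strand, RefSeq, GRCh38.p14) is shown because it was the only 1 among the leading rises with promoters that matched the AP-1 motif TGANTCA. The capitals mark its 2 matches, which start 12 bases before and 38 bases after the transcription start.
IL1A: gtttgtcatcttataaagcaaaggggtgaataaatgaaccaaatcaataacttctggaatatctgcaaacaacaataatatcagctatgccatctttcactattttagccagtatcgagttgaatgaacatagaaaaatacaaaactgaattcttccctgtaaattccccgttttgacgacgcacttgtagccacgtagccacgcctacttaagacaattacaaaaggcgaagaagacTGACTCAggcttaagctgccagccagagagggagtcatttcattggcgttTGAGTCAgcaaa

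The other 6 leading rises were noncoding or pseudogene entries. The long noncoding RNA TMEM132D-AS1 measured 4.59, 6.64, 3.36 and 2.44 TPM in WT and 22.4, 40.5, 29.1 and 16.7 in clone 4.1. The counting is not stated to use strand, so its reads cannot be told apart from those of overlapping genes on the opposite strand. AC254633.1, another long noncoding RNA, rose from 6.88 ± 4.24 to 25.3 ± 13.6 TPM with overlapping groups. AC114501.1, AC124068.1, PTBP1P and IGKV1OR-3 are pseudogenes that can share reads with near-identical copies, and their levels are uncertain; all stayed below 20 TPM.

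Among the 15 largest falls were signalling proteins, a keratin and several cancer-testis antigen genes. IL24, a cytokine of the IL-10 family first isolated from differentiating melanoma cells, measured 15.9, 26, 60.4 and 27.2 TPM in WT and 0.992, 4.27, 3.85 and 1.83 in clone 4.1. The groups did not overlap, and the gene fell by 3.10 on the log2(TPM + 1) scale (SE 0.202, adjusted p = 0.000861). DKK1, a secreted inhibitor of Wnt signalling, varied widely in WT at 15.6, 2.60, 11.2 and 77.4 TPM and measured 0.516, 0.306, 0.174 and 4.42 in clone 4.1. Replicate 4 was the highest in both groups, and its clone 4.1 value lay above WT replicate 2. DKK1 fell by 3.04 (SE 0.366, adjusted p = 0.005), and without the pairing its adjusted p was 0.206 (2 groups) or 0.196 (5 groups), with 0.00118 as the lowest over all alternatives.

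KRT81, a hair keratin with close relatives in the same cluster, measured 18.9, 8.27, 5.09 and 11.4 TPM in WT and 0.6, 0.127, 0.0860 and 0.695 in clone 4.1. UCA1, a long noncoding RNA known from bladder cancer, measured 13.1, 7.003, 5.002 and 14.3 TPM in WT and 0.162, 0.104, 0.102 and 0 in clone 4.1. ATP10A, a phospholipid flippase, was near 0 in the clone, with 5.46, 4.69, 5.22 and 5.91 TPM in WT against 0.0520, 0, 0 and 0.0380. For these 3 genes every clone 4.1 library was below 1 TPM and every WT library above 4 TPM. LINC02184, a long noncoding RNA, fell from 4.79 ± 1.29 to 0.125 ± 0.131 TPM.

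Pseudogenes made up 3 of the leading falls, and each can share reads with its parent gene. UBBP4, a ubiquitin B pseudogene, fell from 26.2 ± 3.50 to 2.81 ± 1.08 TPM. Its transcript UBBP4-203 went from 68.0% of the gene's TPM in WT to 1.74% in clone 4.1, while UBBP4-201 averaged 8.35 ± 1.49 and 2.77 ± 1.04 TPM (SD, n = 4 each). USP32P1 was listed at 0 in all 4 clone 4.1 libraries and at 2.72, 5.42, 4.61 and 2.62 TPM in WT. NCOR1P4 was likewise listed at 0 in all 4, against 5.18, 2.94, 2.11 and 7.35 TPM in WT.

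Some of the 30 leading calls rest on the pairing or on 1 library. Without the pairing, 11 missed the threshold with 2 groups in the fit: VGF, IL1A, TAFA2, AC124068.1, IGKV1OR-3, PTBP1P, ABCA8, AC254633.1, GAGE2E, DKK1 and GAGE12D. With 5 groups in the fit 8 did: VGF, AC124068.1, CEMIP (adjusted p = 0.0856), IGKV1OR-3, HTRA1 (0.0557), AC254633.1, SIRPB1 (0.0861) and DKK1. Without replicate 1, IGKV1OR-3, PTBP1P, AC254633.1 and SIRPB1 missed it, and without replicate 4, AC114501.1, PTBP1P and GAGE12D. GAGE12D also missed it without replicate 2 or 3 (adjusted p = 0.0675 and 0.0726, and 0.103 without replicate 4). Over all alternatives, AC124068.1 kept its side of the threshold in 9 of 13 and PTBP1P in 10 of 14. AC254633.1 did so in 11 of 15, AC114501.1 in 12 of 14, GAGE2E in 13 of 15 and GAGE12D in 10 of 15. These counts include misses in settings not named here.

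Cancer-testis antigen genes are normally silent outside the germ line and are switched on in many melanomas. Of 43 tested, 8 fell and 2 rose. Those that fell were GAGE12C, GAGE2E, GAGE1, GAGE12D, GAGE12J, GAGE2A, SPANXB1 and CTAG2, and those that rose were GAGE12H and MAGEA1. GAGE12C measured 19.4, 17.6, 20.6 and 9.46 TPM in WT and 0, 0, 2.28 and 0 in clone 4.1. MAGEA1 rose from 7.37 ± 2.05 to 23.2 ± 7.45 TPM, and GAGE12H from 4.32 ± 1.62 to 8.72 ± 1.08 TPM. PRAME, the most widely used antigen of this kind, did not pass, with 127 ± 21.5 and 134 ± 15.7 TPM.

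The GAGE genes lie in a tandem array on chromosome X and are nearly identical, so the share given to each copy is uncertain. Summed over all 13 GAGE genes in the table, the level was 121, 111, 156 and 133 TPM in WT and 33.3, 24.8, 26.2 and 30.1 in clone 4.1, a ratio of means of 4.56. The groups did not come near each other. The same sum was 14.1 ± 0.976 TPM in clone 4.2 (n = 3), 8.06 ± 2.30 in clone 1.1 (n = 3) and 563 ± 50.7 in clone 1.2 (n = 4), so clones 4.1, 4.2 and 1.1 lay below WT and clone 1.2 above it.

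The promoters of GAGE12C and GAGE1 are shown to make that near-identity visible. In the RefSeq table (GRCh38.p14) GAGE12C (chrX:49531927-49532226, plus strand), GAGE12D and GAGE2A had the same 300 bases. GAGE1 (chrX:49598763-49599062, plus strand) was identical over 293 aligned bases and its window began 7 bases earlier relative to them; capitals mark those 7 bases.
GAGE12C: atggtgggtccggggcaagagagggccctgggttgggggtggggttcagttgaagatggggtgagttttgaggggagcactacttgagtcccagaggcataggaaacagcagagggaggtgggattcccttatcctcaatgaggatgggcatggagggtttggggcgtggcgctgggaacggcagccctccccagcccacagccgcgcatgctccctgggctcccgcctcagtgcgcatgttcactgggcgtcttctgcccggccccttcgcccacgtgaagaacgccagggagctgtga
GAGE1: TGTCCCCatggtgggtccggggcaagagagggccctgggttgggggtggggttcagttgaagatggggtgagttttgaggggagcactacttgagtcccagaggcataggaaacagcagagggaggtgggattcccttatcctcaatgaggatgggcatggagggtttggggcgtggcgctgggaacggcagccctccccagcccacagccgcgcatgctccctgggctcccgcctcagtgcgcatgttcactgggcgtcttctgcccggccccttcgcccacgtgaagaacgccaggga

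VCX genes, another X-linked family expressed in male germ cells, lie at separate places on the short arm of that chromosome. VCX, VCX2, VCX3A and VCX3B were all called lower. VCX2 measured 8.80, 5.17, 10.4 and 9.80 TPM in WT and 1.33, 0.460, 1.08 and 1.27 in clone 4.1, and fell by 2.22 (SE 0.123, adjusted p = 0.000713). VCX3B measured 10.9, 8.91, 22.9 and 15.8 TPM in WT and 1.38, 0.549, 1.41 and 2.53 in clone 4.1. The sum of the 4 genes was 41.9 ± 16.1 TPM in WT (n = 4) and 5.31 ± 1.92 in clone 4.1 (n = 4), and 26.5 ± 2.13 in clone 4.2 (n = 3). Across the other clones the sum was 6.47 ± 1.01 TPM in clone 1.1 and 35.5 ± 4.78 in clone 1.2.

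Promoters of VCX3B (chrX:8464580-8464879, plus strand) and VCX2 (chrX:8171218-8171517, minus strand) are shown because these genes both fell. Their RefSeq windows (GRCh38.p14) were 95.7% identical over 278 aligned bases, with 12 mismatches; capitals in VCX2 mark bases that differ from VCX3B or have no partner in it.
VCX3B: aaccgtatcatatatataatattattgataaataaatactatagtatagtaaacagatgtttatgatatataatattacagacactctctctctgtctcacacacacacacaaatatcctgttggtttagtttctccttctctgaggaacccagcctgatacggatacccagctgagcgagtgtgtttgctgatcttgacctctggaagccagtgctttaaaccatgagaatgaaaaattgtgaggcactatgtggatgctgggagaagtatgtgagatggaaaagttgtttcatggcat
VCX2: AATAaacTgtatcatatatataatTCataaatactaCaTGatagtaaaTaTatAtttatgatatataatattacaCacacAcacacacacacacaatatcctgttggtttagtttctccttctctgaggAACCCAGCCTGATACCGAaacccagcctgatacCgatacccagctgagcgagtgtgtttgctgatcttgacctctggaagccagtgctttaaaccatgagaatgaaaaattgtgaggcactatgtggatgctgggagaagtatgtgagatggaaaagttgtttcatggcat

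**Figure D2:**
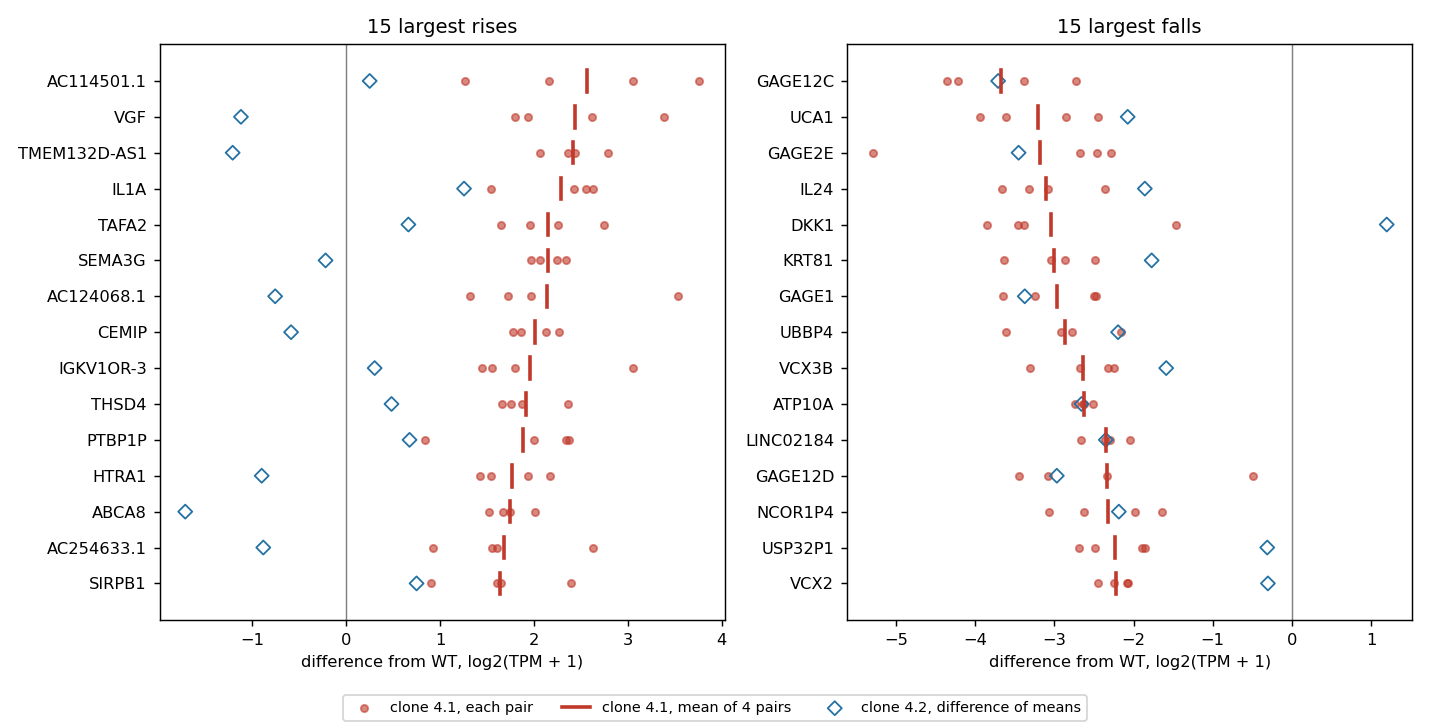
Difference from WT on the log2(TPM + 1) scale (horizontal axes) for the 15 largest rises (left) and falls (right) in clone 4.1; red points are the 4 pairs, red bars their mean, and blue diamonds clone 4.2 minus WT as a difference of group means. VGF stands at 2.43 in clone 4.1, and 9 of the 15 rises and 3 of the 15 falls differed between the clones. The genes were picked by their clone 4.1 values, which favours such differences.

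**Figure D3:**
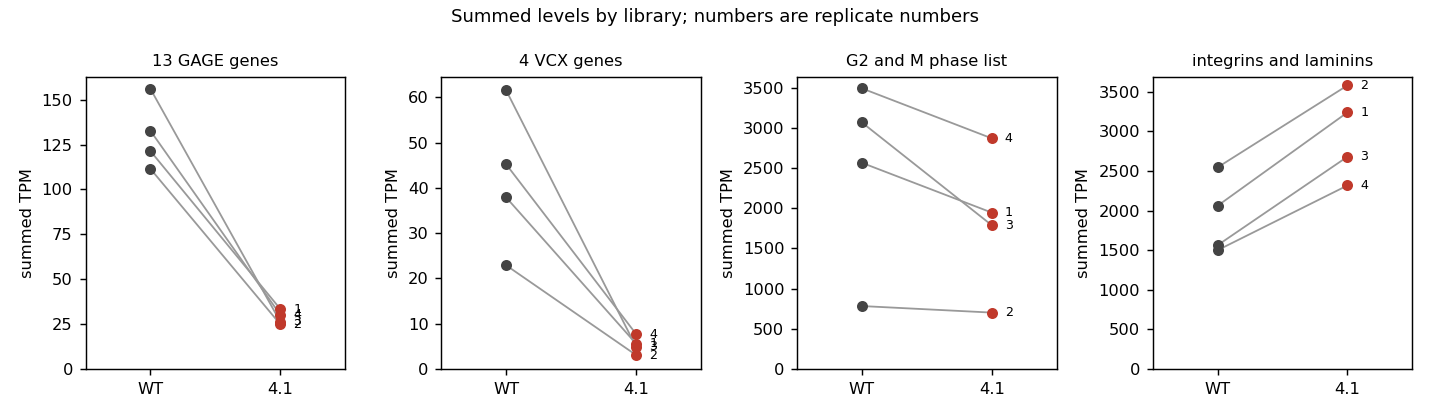
Summed TPM by library (vertical axes, linear from 0) of 13 GAGE genes, 4 VCX genes, the G2 and M phase list and the integrin and laminin list in WT and clone 4.1; grey lines join libraries of the same number, printed beside the clone 4.1 points. The GAGE and VCX sums fall in each pair, and replicate 2 has the lowest G2 and M phase sum in both groups.

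Clone 4.2 carries a deletion of the same region, so the leading genes were read in it too. Clones 4.1 and 4.2 share the WT libraries, and their differences from WT are therefore not independent; the clones were tested against each other in a fit of all 5 A375 groups, in which 3.95% of genes had an adjusted p under 0.05. Of SOX10 and the 30 leading genes, 12 differed. The 30 were picked for extreme values in these same clone 4.1 libraries, which favours differences from clone 4.2. Their count therefore cannot be set against that 3.95%. Higher in clone 4.1 were VGF, CEMIP, HTRA1, THSD4, SEMA3G, ABCA8, TMEM132D-AS1, AC114501.1 and AC124068.1, and lower were DKK1, VCX2 and USP32P1.

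For the genes that rose in clone 4.1, means in clone 4.2 lay on both sides of WT. VGF averaged 507 ± 538 TPM (n = 3), CEMIP 75.5 ± 50.4, HTRA1 39.4 ± 26.5 and SEMA3G 2.51 ± 0.919, all below their WT means. Above their WT means were IL1A at 6.42 ± 2.88 TPM, SIRPB1 at 31.2 ± 15.6, TAFA2 at 4.96 ± 3.50 and THSD4 at 9.57 ± 6.20. The pseudogenes PTBP1P, IGKV1OR-3 and AC114501.1 were above theirs too. Clone 4.2 was not tested against WT. DKK1 averaged 46.4 ± 35.5 TPM in clone 4.2, and clone 4.1 lay 4.23 below it on the log2 scale, a difference of -4.23 (adjusted p = 0.036). For 12 of the 15 leading falls no difference between the clones passed: UCA1 averaged 1.43 ± 0.5 TPM in clone 4.2, IL24 7.79 ± 3.80, KRT81 2.90 ± 2.96, UBBP4 5.02 ± 1.43, and ATP10A was listed at 0 in its 3 libraries. SOX10 was 0.48 higher in clone 4.1 than in clone 4.2 (SE 0.160, adjusted p = 0.103). Leaving out single libraries of either clone moved the count of differing genes between 6 and 15, lowest without clone 4.2 replicate 3 and highest without clone 4.1 replicate 4. It was 7 without clone 4.1 replicate 1 or 3 or without clone 4.2 replicate 2.

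Genes of 2 chromosome stretches moved together in clone 4.1. Tested genes were put in order along each chromosome in blocks of 50, and a stretch was taken where at least 2 neighbouring blocks had a median difference of at least 0.25 in size, a rule set after the values were seen. On chromosome 17, 300 genes between 212389 and 20737127 (GRCh38) had a median of -0.48, and 88.3% of them were below 0. On chromosome 15, 372 genes between 51447711 and 101976543 had a median of 0.32, and 82.3% were above 0. These span most of the short arm of chromosome 17 and the distal long arm of chromosome 15.

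The shift was of like size in every pair. The stretches were picked from the mean of these same pairs, all of 1 clone, so the pair medians are not independent of that choice. The medians by pair were -0.48, -0.50, -0.47 and -0.53 in the chromosome 17 stretch and 0.37, 0.30, 0.35 and 0.29 in the chromosome 15 stretch. The rest of chromosome 17 had a median of -0.03 and the rest of chromosome 15 a median of -0.06. In the chromosome 17 stretch 148 genes fell and 4 rose, and in the chromosome 15 stretch 137 rose and 3 fell. In the other A375 clones the same stretches had medians of 0.03 to 0.11 (chromosome 17) and -0.02 to 0.07 (chromosome 15). DNA copy number was not measured, and its part in these values was not tested.

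Within the chromosome 17 stretch, PIMREG, a protein of dividing cells, measured 34.3, 11.7, 41.3 and 31.7 TPM in WT and 8.27, 3.72, 8.46 and 11.6 in clone 4.1, and fell by 1.72 (SE 0.149, adjusted p = 0.00192). EPN2, an endocytic adaptor, went against its neighbours and rose from 19.7 ± 2.51 to 49.4 ± 8.09 TPM. CEMIP, THSD4, AC124068.1 and ISG20 lie in the chromosome 15 stretch, and AURKB and USP32P1 in that of chromosome 17. Outside the stretches 219 genes were called, 107 higher and 112 lower.

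**Figure D4:**
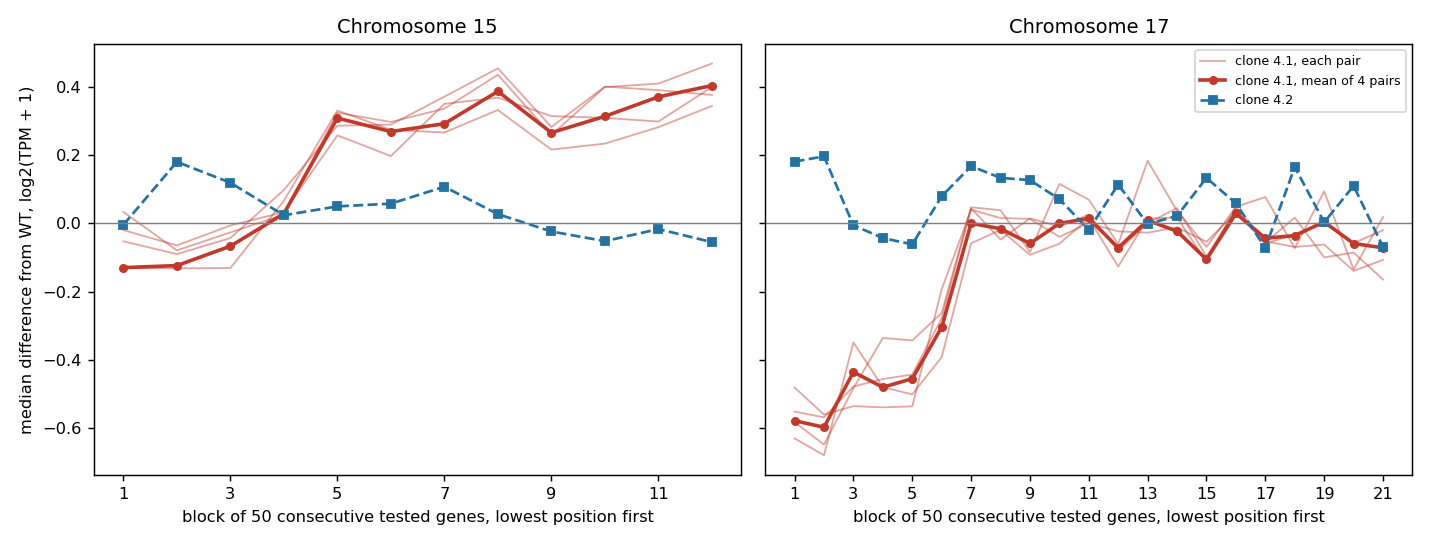
Median difference from WT on the log2(TPM + 1) scale (vertical axis) of blocks of 50 consecutive tested genes along chromosomes 15 and 17, numbered from the lowest position; thick red lines are the mean of 4 pairs in clone 4.1, thin red lines single pairs, and dashed blue lines clone 4.2. The last 8 blocks of chromosome 15 lie above 0 and the first 6 of chromosome 17 below 0 in clone 4.1, and clone 4.2 shows neither step.

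Gene lists were read next, as counts of members that rose or fell, beside 6.55% and 5.14% over all genes. These counts rest on the pairing, since 94 of 128 named genes missed the threshold in the fit of 2 groups without it. The 128 include genes that did not pass with the pairing either, taken as examples from lists with no passing member. The list of ERK pathway feedback and output had 9 members up and 1 down of 20, with a median of 0.45. The ERK pathway carries growth signals from RAS and BRAF, which is mutated in A375, and induces its own inhibitors. SPRY4, a Sprouty inhibitor, measured 166, 246, 156 and 94.8 TPM in WT and 294, 406, 309 and 221 in clone 4.1, higher in each pair with overlapping groups. DUSP5, an ERK phosphatase, rose from 13.8 ± 1.06 to 24.0 ± 2.79 TPM with no overlap, and SPRED3 and SPRY1 rose by 0.80 and 0.77. CCND1, cyclin D1, rose from 258 ± 105 to 393 ± 78.3 TPM, while MYC fell from 18.1 ± 1.11 to 13.2 ± 1.34. Without the pairing 1 member rose, and 3 rose without replicate 1 or without replicate 4.

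Integrins and laminins, receptors and ligands of the basement membrane, had 11 of 26 up and 2 down, with a median of 0.43. ITGA1 measured 91.9, 92.3, 79.3 and 46.7 TPM in WT and 218, 207, 184 and 140 in clone 4.1, with no overlap and a difference of 1.29 ± 0.0826 (adjusted p = 0.000861). ITGA7, a laminin receptor chain, rose by 1.3 without overlap, and ITGB3, the integrin beta chain of invasive melanoma, by 1.06 with overlapping groups. ITGB4 fell from 7.81 ± 7.99 to 2.48 ± 1.59 TPM. The laminin chains LAMA4, LAMC1, LAMB2 and LAMB1 rose, and LAMA2 fell. None passed without the pairing, and 7 rose without replicate 1 or without replicate 4.

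NF-kB inflammatory genes had 7 of 19 up and none down, with a median of 0.33. Beside IL1A, these were LIF, ICAM1, BIRC3, IL1B, NFKB2 and RELB. LIF, a cytokine of the IL-6 family, measured 14.2, 18.9, 15.6 and 23.4 TPM in WT and 61.1, 62.1, 52.3 and 43.2 in clone 4.1. Its groups lay apart and it rose by 1.56 (SE 0.176, adjusted p = 0.00396), also without the pairing (adjusted p = 0.0087 with 2 groups; 0.000226 to 0.0405 over all alternatives). ICAM1, an adhesion molecule for leukocytes, measured 46.2, 112, 52.8 and 27.4 TPM in WT and 124, 292, 96.5 and 50.4 in clone 4.1, with overlap and with replicate 2 highest in both. The median of the list was -0.18 in pair 3 and 0.29 to 0.72 in the other pairs; 3 members rose without replicate 1 and 4 without replicate 2.

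Of 28 interferon-stimulated genes 6 rose and none fell: ISG20, IRF9, IRF7, IFIH1, IFI35 and MX1. ISG20, an exonuclease, measured 161, 106, 217 and 78.3 TPM in WT and 430, 338, 507 and 252 in clone 4.1, and lies in the chromosome 15 stretch. Of 19 genes of MHC class I presentation 3 rose, HLA-B, HLA-C and ERAP1. Of 12 MHC class II genes 4 rose (HLA-DQA1, HLA-DRB1, HLA-DRB5 and HLA-DQB1) and HLA-DOA fell from 6.81 ± 1.57 to 1.92 ± 1.28 TPM. HLA-DRB1 and HLA-DRB5 are near-identical in part and their reads can be split. Without replicate 1, 1 interferon gene rose and no gene of either MHC list did. Without replicate 4, 1 interferon gene, 1 class I gene and no class II gene rose, and without replicate 3, 2 interferon genes and 1 class II gene. Without replicate 2, 1 class I gene rose.

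Of 27 genes of the undifferentiated melanoma state 6 rose and 6 fell, with a median of -0.13. THBS1, a matrix protein, measured 189, 71.8, 61.2 and 813 TPM in WT and 45.2, 16.3, 16.9 and 211 in clone 4.1. It was lower in each pair by a near-constant ratio, while the groups overlapped widely because replicate 4 was high in both. THBS1 fell by 1.96 (SE 0.0713, adjusted p = 0.000384), and without the pairing its adjusted p was 0.571 (2 groups) or 0.526 (5 groups), with 3.4e-05 as the lowest over all alternatives. FN1, fibronectin, and CAV1, caveolin, fell by 1.67 and 1.14, as did CCN2, FOSL1 and TEAD4 by smaller amounts. Among those that rose were CDH2, a cadherin of mesenchymal cells, NT5E, TNC, ZEB1 and PLAUR. Without replicate 1, 1 of the list rose and 3 fell, and without replicate 4, 4 rose and 3 fell.

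Neural crest and glial genes had 4 up and 4 down of 23. NGFR, the low-affinity neurotrophin receptor, measured 15.4, 3.39, 4.24 and 30.6 TPM in WT and 1.46, 1.21, 0.746 and 2.11 in clone 4.1, with no overlap, and fell by 2.16 (SE 0.366, adjusted p = 0.0138). L1CAM, a neural adhesion molecule, fell from 17 ± 6.92 to 6.50 ± 1.75 TPM and TFAP2A, a neural crest transcription factor, from 11.8 ± 2.15 to 6.30 ± 0.664. MIA, a secreted protein that SOX10 is known to activate, measured 698, 691, 738 and 506 TPM in WT and 1122, 841, 1433 and 976 in clone 4.1. NES, SOX5 and ERBB3 also rose, and FOXD3 fell. Without replicate 1 none of the list rose and 2 fell, without replicate 4, 1 rose and 2 fell, and without replicate 3, 2 rose and 4 fell.

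Of 24 melanocytic genes 13 were below 1 TPM in all 8 libraries and 11 were tested. MLPH, which links melanosomes to the motor that moves them, fell from 2.65 ± 1.29 to 0.296 ± 0.271 TPM (adjusted p = 0.00609). MITF measured 22.2, 21.5, 26.7 and 18.7 TPM in WT and 17, 16.5, 15.0 and 17.9 in clone 4.1. All clone values lay below all WT values, and the difference of -0.40 (SE 0.123) had an adjusted p of 0.0858. CSPG4, a proteoglycan of the melanoma cell surface, measured 251, 423, 210 and 171 TPM in WT and 549, 805, 515 and 353 in clone 4.1 and rose by 1.1 (SE 0.0746, adjusted p = 0.00095). WT replicate 2 lay above clone 4.1 replicate 4, so its groups overlapped. It was 1 of 4 melanoma cell markers of 9 tested that rose, with S100A1, MIA and MCAM, and lies in the chromosome 15 stretch. Without replicate 1 or without replicate 4, 2 of these markers rose, and MLPH missed the threshold without replicate 1.

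Of 28 G2 and M phase genes 8 fell and none rose, with a median of -0.32: AURKB, CCNA2, CKS2, CDC20, CCNB1, ANLN, PLK1 and TOP2A. AURKB, a mitotic kinase that lies in the chromosome 17 stretch, measured 114, 34.1, 105 and 155 TPM in WT and 49.1, 21.7, 37.5 and 61.9 in clone 4.1, with overlap through WT replicate 2. CCNA2, cyclin A2, fell by 0.57 and CDC20, an activator of anaphase, by 0.54. None of 26 S phase genes passed, although 25 were below 0, with a median of -0.22. The summed level of the G2 and M phase list was 2567, 783, 3069 and 3494 TPM in WT and 1946, 701, 1789 and 2871 in clone 4.1, so replicate 2 was low in both groups. Without replicate 2, 7 G2 and M phase genes and 5 S phase genes fell; without replicate 1 or without replicate 4, 1 G2 and M phase gene fell, and without replicate 3, 3 did.

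**Figure D5:**
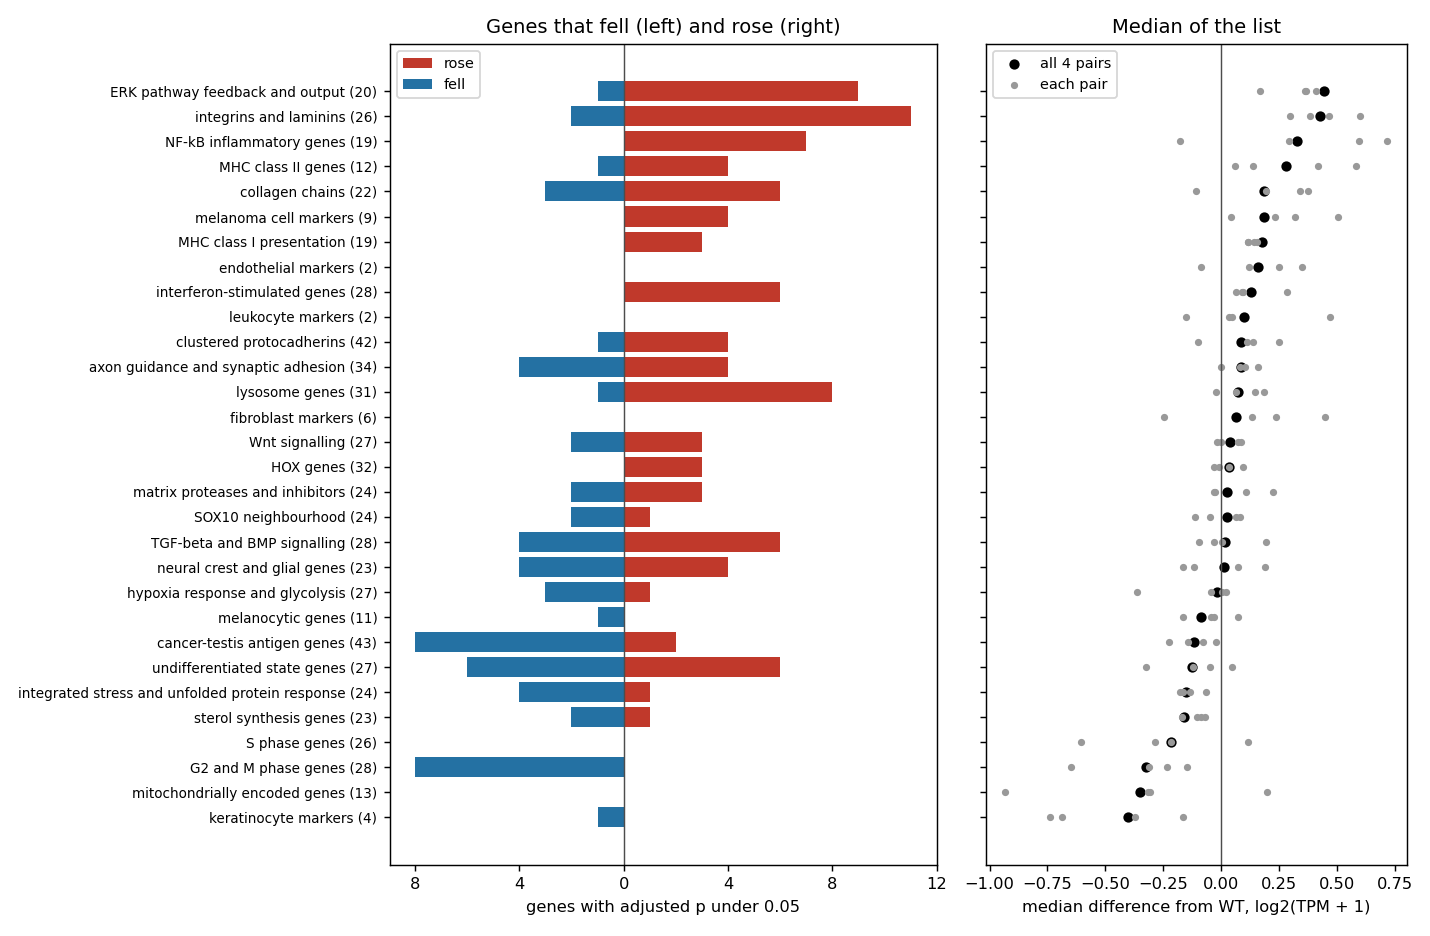
Left, number of genes with an adjusted p under 0.05 that fell (blue) or rose (red) in clone 4.1 in each list, with the number tested in parentheses; right, median difference from WT on the log2(TPM + 1) scale, over all 4 pairs (black) and in each pair (grey). The ERK, integrin and NF-kB lists have the highest medians, and the G2 and M phase list has 8 members that fell and none that rose.

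Among 28 TGF-beta and BMP genes 6 rose and 4 fell: INHBA, an activin chain, rose from 133 ± 59.5 to 245 ± 88.8 TPM and LTBP3 from 280 ± 113 to 507 ± 153, while the activin antagonist FST fell from 152 ± 98.6 to 59.0 ± 28.4 and BMP7 from 4.87 ± 2.22 to 1.85 ± 0.839. Of 27 Wnt genes 3 rose and 2 fell, DKK1 being the furthest. Of 22 collagen chains 6 rose, among them COL6A2 from 90.1 ± 51.6 to 160 ± 75.7 TPM, and 3 fell, among them COL12A1 from 5.15 ± 2.13 to 1.66 ± 0.627. Among 24 matrix proteases and inhibitors 3 rose and 2 fell; TFPI2, a protease inhibitor, rose from 21.7 ± 10.2 to 55.2 ± 17.5 TPM and MMP2 fell from 157 ± 78.8 to 107 ± 39.6. Without replicate 1, 2 TGF-beta and BMP genes rose and none fell, 2 collagens rose and 1 fell, 1 Wnt gene fell, and no protease or inhibitor passed. Without replicate 4, 3 TGF-beta and BMP genes rose and 1 fell, 1 collagen rose and 2 fell, 1 Wnt gene fell, and 2 proteases or inhibitors rose. Without replicate 3, 1 collagen rose and 2 fell, and 1 Wnt gene fell. The TGF-beta and BMP list holds SMAD3, which rose, and SMAD6, which fell, both in the chromosome 15 stretch.

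Axon guidance genes had 4 up and 4 down of 34. SEMA3A, a secreted repellent, rose from 21.7 ± 10.3 to 47.0 ± 17.5 TPM. The semaphorin receptor NRP2 rose from 58.6 to 102 TPM, while the ephrin receptor EPHA7 fell from 1.87 ± 0.467 to 0.231 ± 0.167. Clustered protocadherins had 4 up and 1 down of 42, and HOX genes 3 up and none down of 32, among them HOXB9 from 17 ± 5.98 to 28.6 ± 8.00 TPM. Protocadherins passed in either direction at 11.9% and HOX genes at 9.38%, near the 11.7% of all genes. Without replicate 1, 2 axon guidance genes rose and 1 fell, no protocadherin passed and 1 HOX gene rose. Without replicate 4, 3 axon guidance genes rose and 1 fell, no protocadherin passed and 2 HOX genes rose. Without replicate 3, 1 protocadherin and 2 HOX genes rose, and 3 axon guidance genes rose and 2 fell.

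Of 24 genes of the integrated stress and unfolded protein responses 4 fell and 1 rose. SLC7A5, a leucine transporter, measured 242, 142, 106 and 650 TPM in WT and 128, 67.7, 54.9 and 289 in clone 4.1, and PSAT1, of serine synthesis, fell from 121 ± 78.3 to 64.9 ± 45.6; PHGDH of the same pathway fell too. SLC7A5 was lower in each pair while its groups overlapped, and without the pairing its adjusted p was 0.721 (2 groups), the highest over all alternatives (lowest 0.000163). Lysosome genes had 8 up and 1 down of 31, among them the cathepsins CTSS and CTSK and, in the chromosome 15 stretch, HEXA. No lysosome gene rose without replicate 1, and 1 did without replicate 4. Hypoxia and glycolysis genes had 1 up and 3 down of 27, and sterol synthesis genes 1 up and 2 down of 23. Without replicate 1 none of either list passed, and 2 stress genes fell and none rose. Without replicate 4, 2 stress genes fell and 1 rose. None of 13 mitochondrially encoded genes passed, with a median of -0.35 and pairs between -0.93 and 0.20.

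Promoters were searched for short motifs on both strands in the window from 250 bases before to 50 bases after the start, using the first RefSeq entry of each gene (GRCh38.p14). Of 16692 tested genes 10944 had a promoter in the table, as did 147 called genes and 16 of SOX10 and the 30 leading genes. The AP-1 motif TGANTCA was in 12.5% of the 72 promoters of genes called higher, 6.67% of 75 called lower and 4.68% of all. Genes called higher with a match were IL1A, IL11, ISG20, TFPI2, SRPX2, BOC, ZNF92, SLITRK6 and LINC02343. The MITF motif CATGTG or CACATG was in 12.5%, 12.0% and 6.79%, and the SOX motif ACAAAG or ACAATG in 12.5%, 20% and 16.1%. The cAMP response element was in 2.78%, 4% and 3.24%, with VGF and NKILA among genes called higher and FN1, ELP5 and PCSK1 among those called lower. The TEAD motif GGAATG was in 9.72%, 12.0% and 10.9%, and the GC box GGGCGG in 50%, 54.7% and 69.5%. No motif contains the letters of another, and the shares are descriptions that were not tested.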

How the data were processed

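RNA was measured by poly(A)-selected RNA-seq, per the labels' protocols. The authors deposited gene and transcript tables in TPM; the submitters' processing notes name DRAGEN and GRCh38, and other steps are not given in the sources used here. Both tables hold 6 columns that match no sample and were not used. In the gene table, 200 repeated lines were used once, leaving 60671 identifiers. The deposited TPM hold no counts, so depth is unknown.

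Genes with at least 1 TPM in at least 3 of the 18 A375 libraries were tested (16692) on log2(TPM + 1), which understates changes of low genes. limma 3.58.1 in R 4.3.3 was fitted with the replicate number as a block, a variance trend and Benjamini-Hochberg adjustment, two-sided. Same-numbered libraries of clone 4.1 and WT had deviations from their group means that correlated across genes at 0.326 to 0.776 (4 pairs). Differently numbered ones correlated at -0.748 to 0.208, and the numbers were taken to pair the libraries. Such deviations cancel within a group, so positive same-numbered values push the others down and the gap is partly built in. The labels do not say what a number marks. On simulated data the procedure was checked before use. Positions are from GENCODE 29 (GRCh38), which left 152 tested genes without one. Promoters are RefSeq's, aligned with Biopython.

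Genes named are SOX10, the 15 largest rises and 15 largest falls among genes called with 4 pairs alike, up to 4 passing members of each list and up to 3 called genes of each stretch; further members are named to complete a list's count. Members and lists were chosen with earlier results of these data known. Alternatives were another pseudocount (0.1), filters, scalings and variance models, no replicate block, leaving out each replicate, and, chosen after seeing the data, leaving out genes at 0 in all 8 libraries or genes of both stretches. Some genes and 1 list that were examined are not reported here.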

Additional observations from a re-analysis of the deposited data

Results flagged for a closer look

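In 22 of 258 groups of 4 libraries examined (129 named genes, WT and clone 4.1), the highest or lowest library stood apart from the other 3 by Dixon's test; chance flags about 1 in 20 groups. Of libraries that stood above the others in clone 4.1, replicate 1 had 12.56 TPM of AC114501.1, 32.217 of EPHB2 and 3.671 of PCDHGA12. Replicate 2 had 18.076 TPM of AC124068.1, 1003.175 of HLA-B, 14.57 of IRF7, 87.492 of GDF15 and 63.143 of FN1. Replicate 3 had 2.281 TPM of GAGE12C and 5481.517 of MT-CO1, and replicate 4 had 4.416 of DKK1 and 211.242 of THBS1. Below the others in clone 4.1 were SLC2A1 in replicate 3 (88.758 TPM) and IRF9 in replicate 4 (8.662 TPM). In WT, libraries above the others were replicate 1 for THSD4 (7.938 TPM), replicate 2 for GDF15 (28.913), TM7SF2 (18.079) and CD68 (119.716), replicate 3 for MT-ATP6 (6898.499) and replicate 4 for THBS1 (812.81). Below the others in WT were PTBP1P (0.029 TPM) and MCAM (111.028), both in replicate 2. GDF15 and THBS1 stood apart in the same replicate number of both groups.

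Of SOX10 and the 30 leading genes, 12 differed between clones 4.1 and 4.2 by limma's test of the difference itself. The 30 were picked by their clone 4.1 values, which favours such differences.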

How the results depend on the processing

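Depth is unknown, all libraries of clone 4.1 are of 1 clone, and most calls need the pairing. Of 242 calls (121 higher, 121 lower), a pseudocount of 0.1 gave 463 (199 and 264), requiring 5 TPM on average gave 149 (73 and 76) and no filter 158 (84 and 74). Without the replicate block there were 75 calls (29 and 46) with 2 groups and 109 (41 and 68) with 5 groups in the fit, so 38.7% and 37.6% of calls were higher, against 43.0% with the pseudocount of 0.1. Genes changed at any size numbered 670 with no filter and 94 and 219 without the block, against 1094 higher and 858 lower. Of 128 named genes, 34 and 44 kept their side of the threshold in the 2 fits without the replicate block. This counts genes that did not pass with the block either. Leaving out 1 replicate gave 143 to 262 calls (73 to 142 higher, 70 to 120 lower) and 281 to 1490 changed genes. Without genes at 0 in all 8 libraries 248 were called, and without both stretches 216. SOX10 never passed. Leading genes that differed from clone 4.2 numbered 6 to 15 when 1 library was left out.

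Differences near 0 changed sign. LYZ had 0.0241 with quantile normalization and -0.0863 to 0.0718 with a replicate left out, and TIE1 -0.0605 to 0.298. Against clone 4.2, a pseudocount of 0.1 gave -0.55 for GAGE12C and -0.28 for GAGE2E; leaving out 1 library gave -0.39 to 0.22 for GAGE12C, -0.0447 to 0.992 for GAGE2E and -0.0686 to 0.0941 for LINC02184. The cause was not tested.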
